A study of Homo sapiens with 12 samples.

Results

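Hyaluronan is a long sugar polymer of the pericellular matrix, and the genes described here are those that make it, cut it and bind it. They are the hyaluronan synthases HAS1, HAS2 and HAS3, the hyaluronidases HYAL1, HYAL2 and HYAL3, and the receptor CD44. All probes on the array that carried 1 of these 7 gene names were taken, which gave 12 of 50599 probes and 7 of 32080 gene names. The family was selected because HAS2 had lower signal in mock-treated TET1 knockdown clones than in mock-treated control clones. Values of that comparison are therefore given as a description, and the count of calls in it supports nothing about a member. HAS2 was also known to be lower in control clones after 5-aza-2'-deoxycytidine (5-aza-dC) when the family was chosen.

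The synthases sit in the plasma membrane, join UDP-glucuronic acid and UDP-N-acetylglucosamine, and push the growing chain out of the cell. HYAL2 is anchored at the cell surface and cuts long chains into fragments, which HYAL1 degrades further in lysosomes, while HYAL3 is the least understood of these hyaluronidases. CD44 is the main cell-surface receptor for hyaluronan, is spliced into many isoforms, and marks stem-like cells in the intestine and in colorectal tumours.

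The cells were Colo320DM, a human colorectal cancer line. Each of the 6 lines compared was 1 clone picked after G418 selection, and 3 control clones carried the plasmid pcDNA6.2-GW/EmGFP-miR-neg while 3 knockdown clones carried a vector expressing a microRNA against TET1, the enzyme that oxidises 5-methylcytosine. Every clone was measured mock-treated and again after 72 h in 1 µM 5-aza-dC, an inhibitor of DNA methyltransferases, which gave 4 groups of 3 one-colour arrays. In the study's text, knockdown clones 1 and 2 of this line share 1 TET1 microRNA and knockdown clone 3 carries another, while the labels only number the clones. A difference between clone types rests on 3 clones of each type.

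To show the sequence before the start of HYAL1, which was called under 5-aza-dC in control clones, beside those of CD44 and HAS3, which were not, the 250 bases before the RefSeq start of each are printed 5′ to 3′ on the strand of the gene, with each CG dinucleotide (CpG), the site of DNA methylation, in capitals. The windows are chr11:35138921-35139170 (plus strand), chr3:50303575-50303824 (minus strand) and chr16:69107290-69107539 (plus strand) of GRCh38.p14.
CD44: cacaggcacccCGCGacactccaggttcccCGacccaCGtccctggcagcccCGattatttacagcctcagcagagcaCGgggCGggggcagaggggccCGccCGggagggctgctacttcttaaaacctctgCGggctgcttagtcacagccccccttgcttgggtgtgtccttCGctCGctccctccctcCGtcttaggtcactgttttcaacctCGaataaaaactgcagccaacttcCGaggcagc
HYAL1: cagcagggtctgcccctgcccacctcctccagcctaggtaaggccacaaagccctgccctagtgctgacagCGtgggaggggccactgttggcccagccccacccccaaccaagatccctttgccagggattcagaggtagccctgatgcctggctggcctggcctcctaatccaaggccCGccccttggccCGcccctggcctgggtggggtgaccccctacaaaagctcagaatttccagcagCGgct
HAS3: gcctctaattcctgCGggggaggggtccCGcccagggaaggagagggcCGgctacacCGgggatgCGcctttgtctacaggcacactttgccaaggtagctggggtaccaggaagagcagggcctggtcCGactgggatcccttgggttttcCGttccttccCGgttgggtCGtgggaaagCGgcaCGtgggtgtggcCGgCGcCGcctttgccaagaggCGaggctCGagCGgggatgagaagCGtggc
The letters CG read the same on both strands. CD44 had 15 of them and HAS3 18, against a median of 11 over 35116 promoter windows of the same length. At least 15 were present in 42.9% of all windows and at least 18 in 36.8%. HYAL1 had 4, and 70.7% of all windows had at least as many. HAS1 had 13, HYAL2 had 9, and the 2 start sites of HYAL3 had 14 and 15. Methylation of these windows is not analysed here, so the counts describe the sequence only.

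HAS3 and CD44 were each read by 2 probes that behaved differently across the arrays. The first 30 bases of these 4 probes, which are 60 bases long, are shown because they lie at different places of the gene and list different transcripts.
HAS3 A_23_P393034: gggaagagcctttatacaattggacgcatt
HAS3 A_33_P3402454: caggtcagagctacggaagcatggtccgtt
CD44 A_33_P3294509: gcacacccttcctctggtttttgtatattt
CD44 A_21_P0000152: caaagagtctttatacctcccttcagcttc
In hg19, the build of the array's annotation, the HAS3 probes lie on chromosome 16 at 69151369 to 69151428 and at 69152306 to 69152365. The first lists 2 RefSeq transcripts (NM_005329 and NM_001199280), and the second lists only NM_138612. The CD44 probes lie on chromosome 11 at 35253812 to 35253871, which lists 4 RefSeq transcripts, and at 35244791 to 35244850, which lists only NM_001202557.

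Signals are given as log2 of the processed signal minus the 75th percentile of the array, so that 0 is the signal of a probe at that percentile. The percentile ranged from 241 to 359 over the arrays, and 45.7% to 52.9% of probes were well above background, a mark set by the scanner software. The 12 arrays lay on 2 slides, and the groups were spread unevenly over them. On slide 1 were mock control clones 1 and 2, every mock knockdown clone, and knockdown clones 1 and 3 after treatment. The others, which were mock control clone 3, all treated control clones and treated knockdown clone 2, were on slide 2. In each comparison of a pair of groups, values with slide as a block are differences within a slide. The epithelial markers KRT8, KRT18 and the intestinal factor CDX2 were well above background on all 12 arrays, but CDH1 was on none and VIL1 on 1.

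TET1 itself was examined first. Its brightest probe had a normalised log2 signal of 4.56, 4.23 and 4.67 in mock control clones 1 to 3 and of 3.59, 3.51 and 3.57 in mock knockdown clones. After 5-aza-dC it had 4.06, 4.42 and 4.16 in control clones and 2.98, 4.31 and 3.35 in knockdown clones. The array labelled treated knockdown clone 2 thus lay within the range of the treated control clones at this probe, whereas at the other 2 TET1 probes it lay below them all (1.02 against 1.99 to 2.37, and -1.74 against -0.77 to -0.61). None of the TET1 probes was called by limma between mock clones (adjusted p = 0.243 to 0.395) or between treated clones (adjusted p = 0.126 to 0.335). At TET1 probe A_23_P322756 the mock groups overlapped.

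HAS2, the main synthase of hyaluronan in many tissues, was readily detected only in mock control clones. It was read by 1 probe (A_23_P10206; hg19 chromosome 8, 122626087 to 122626146) printed on 10 spots per array. In mock control clones 1 to 3 its normalised log2 signal was -1.18, -1.12 and -2.16. In mock knockdown clones it was -6.05, -5.93 and -6.34, with none of the 10 spots of any array well above background. The mock groups did not overlap, and the means of -1.49 ± 0.58 (SD, n = 3) and -6.10 ± 0.21 (SD, n = 3) put HAS2 at least 5.51-fold lower in knockdown clones. A bound is given because the knockdown arrays did not rise over background. On slide 1, where control clones 1 and 2 lie with the knockdown clones, the fitted difference was -4.95, against -4.62 over both slides. These values chose the family and are not a test.

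After 5-aza-dC, HAS2 was low in both clone types. Treated control clones 1 to 3 had -4.03, -3.39 and -3.68, with 4, 8 and 3 of 10 spots well above background. All 3 lay below every mock control clone, and each control clone fell, by 2.85, 2.27 and 1.52. The fitted difference in control clones was -2.22 (SE 0.34, limma, adjusted p = 0.0180). It is not a measured fold, since the probe passed background on 1 of 3 treated arrays only, and it rests on the same mock control arrays that chose the family. With slide as a block, which sets the treated arrays against mock control clone 3, the difference was -1.54 and was not called (limma, adjusted p = 0.0711). With both clone and slide as blocks it was -1.52 and without control clone 1 it was -1.90, and in neither was it called. Those fits called 0 of 24640 and 2 of 22585 probes in all, so the loss of the call there is not particular to HAS2. This does not cover the fit with slide as a block. By the methods' t-test, which called 357 of 24577 probes, HAS2 was not called either.

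Treated knockdown clones had HAS2 signals of -6.26, -5.34 and -6.58, none well above background and all below the treated control clones. The gene was at least 1.23-fold lower there than in treated control clones, but too few arrays detected it for a test. The difference between the responses of knockdown and control clones was 2.26. It contains the mock values that chose the family and is given with no test. A knockdown signal already at background in mock clones cannot show a further decrease.

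**Figure D1:**
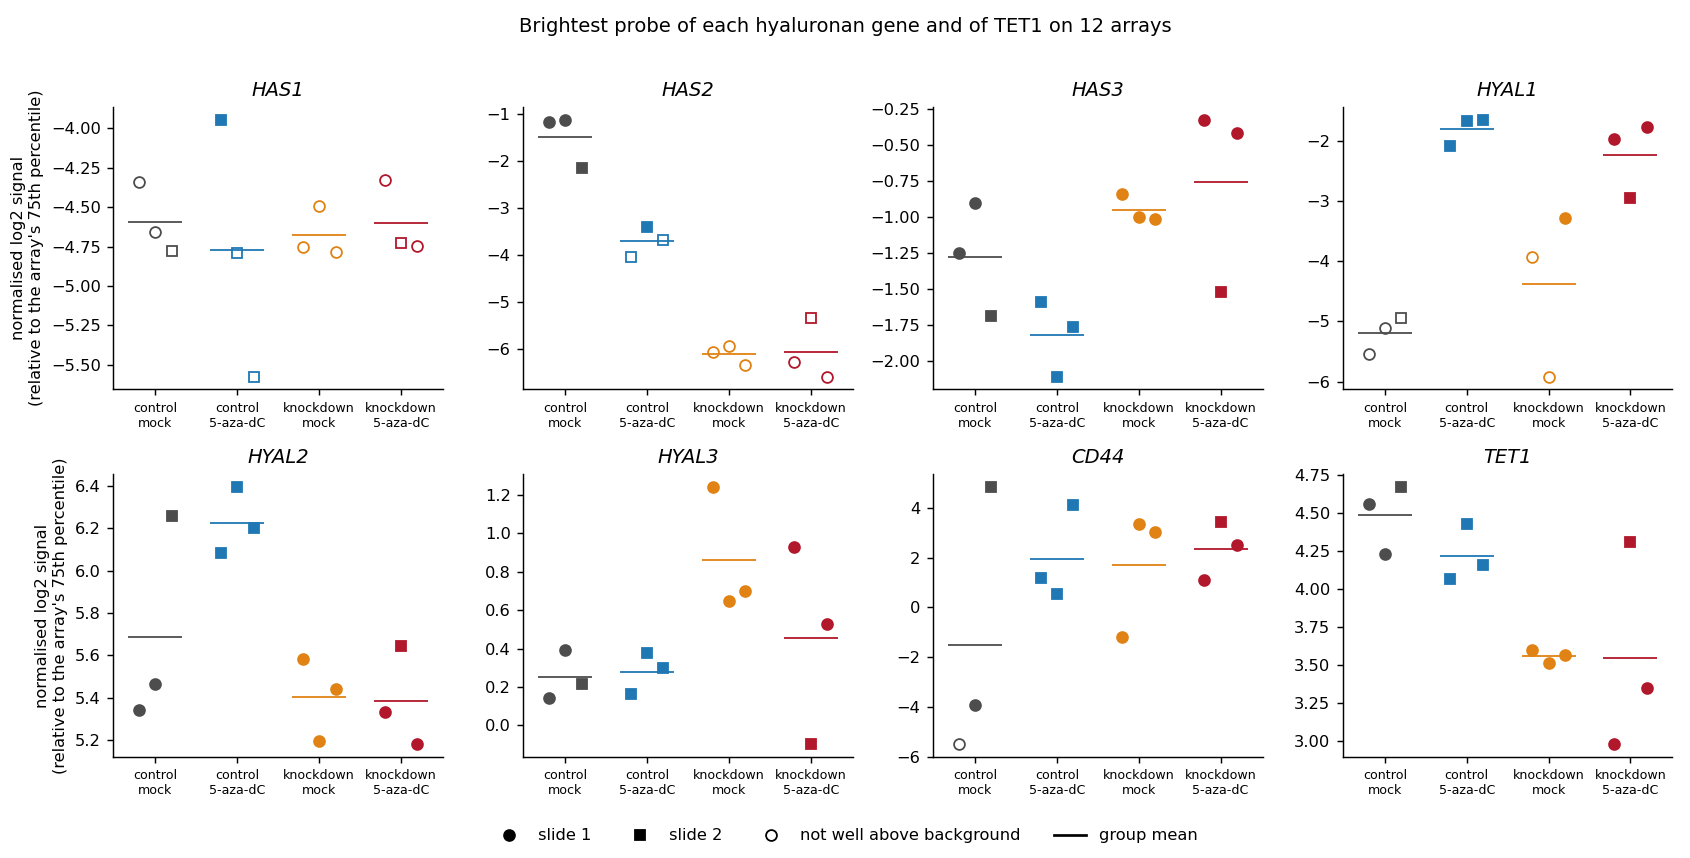
Normalised log2 signal (y axis, relative to the 75th percentile of the array) of the brightest probe of each hyaluronan gene and of TET1 in the 4 groups (x axis), 1 point per array, clones 1 to 3 from left to right, with the group mean as a line. Open points are not well above background, and circles and squares are the 2 slides. HAS2 is filled in the 3 mock control arrays and 1 treated control array, and CD44 spans -5.49 to 4.84 within the mock control clones.

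The antisense transcript HAS2-AS1, which overlaps HAS2 on the opposite strand, was likewise highest in mock control clones. Its probe (hg19 chromosome 8, 122656732 to 122656791) was well above background in the 3 mock control clones alone, at -3.59 ± 0.35 (SD, n = 3). It averaged -6.23 in mock knockdown, -5.51 in treated control and -6.25 in treated knockdown clones, all at background, so that no order among these groups was measured. In control clones limma called its decrease after 5-aza-dC (adjusted p = 0.0156), which is a fall of at least 1.21-fold because all treated arrays were at background. The probe passed the filter on dim probes only through the mock control arrays, whose HAS2 values chose the family, and so is no independent support. With no filter it was called too (adjusted p = 0.0331). It was not called with normexp and quantile normalisation, by the methods' t-test or with both clone and slide as blocks.

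HAS1 was at or near background throughout. Of its 3 probes on chromosome 19, 2 were never well above background. The brightest (A_33_P3295203) was so on 1 array, treated control clone 1, at -3.95, and ranged from -5.57 to -4.33 on the other 11 arrays. No difference in HAS1 could be tested.

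HAS3 was the only synthase detected on all 12 arrays. Its brightest probe (A_23_P393034) had -1.25, -0.90 and -1.69 in mock control clones and -0.84, -0.997 and -1.02 in mock knockdown clones, and these groups overlapped. After 5-aza-dC it had -1.59, -2.11 and -1.77 in control clones and -0.32, -1.52 and -0.42 in knockdown clones. The treated groups did not overlap, knockdown clone 2 being the nearest to the control clones.

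The treated knockdown clones were higher than the treated control clones by 1.07 (SE 0.37, 95% interval 0.19 to 1.94), which limma did not call (adjusted p = 0.224). Without knockdown clone 2, the only treated knockdown array on slide 2, the difference was 1.45 and was called (adjusted p = 0.00811), but that fit compares arrays of different slides and called 7730 of 24640 probes. On slide 2 alone, where clone 2 is set against the treated control clones, it was 0.30. The other HAS3 probe did not follow, with -2.38 to -1.88 over all 12 arrays and a treated difference of -0.08 (95% interval -0.53 to 0.38; adjusted p = 0.833). HAS3 changed with 5-aza-dC by -0.54 (SE 0.26, adjusted p = 0.232) in control clones and by 0.20 (SE 0.35, adjusted p = 0.872) in knockdown clones, and limma called neither. With slide as a block these were -0.14 and 0.58.

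**Figure D2:**
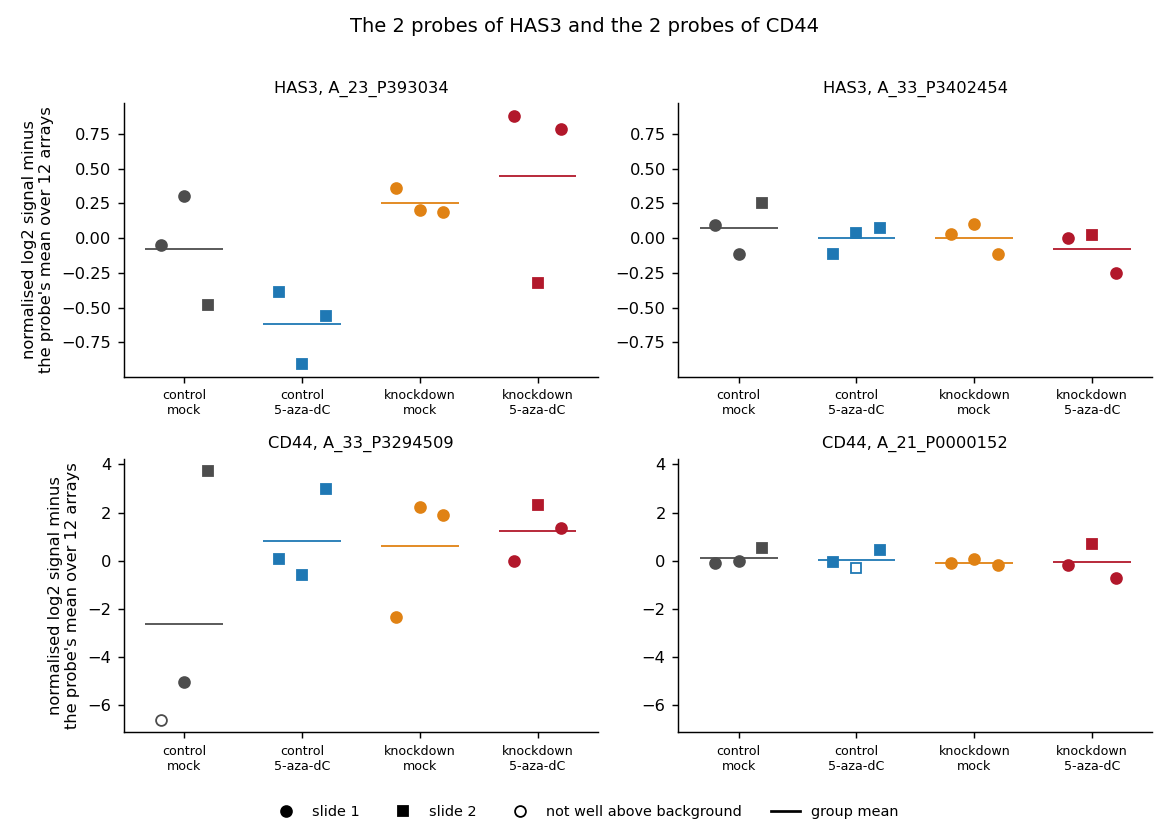
The 2 probes of HAS3 (top) and the 2 of CD44 (bottom) in the 4 groups (x axis), as normalised log2 signal minus the mean of that probe over 12 arrays (y axis), 1 point per array, lines at group means, open points not well above background. Both probes of a gene share 1 scale, and in each gene the probe on the left varies over the arrays while the probe on the right stays close to 0.

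HYAL1, the lysosomal hyaluronidase, rose after 5-aza-dC in every clone. Its probe (A_23_P69329; hg19 chromosome 3, 50337673 to 50337732) had -5.54, -5.11 and -4.95 in mock control clones, none of them well above background. After 5-aza-dC these clones had -2.08, -1.67 and -1.65, all well above background. The control groups did not overlap, and HYAL1 was at least 5.03-fold higher after treatment (fitted log2 difference 3.40, SE 0.23, limma, adjusted p = 0.00114). The probe passed the filter on dim probes only through the treated arrays, where it is high. With no filter it was called too (adjusted p = 0.00285). With slide as a block the difference was 3.15 (adjusted p = 0.0148). With both clone and slide as blocks, a fit that called 0 of 24640 probes, it was 3.30 (adjusted p = 0.0716). Without any 1 of the control clones, too few arrays were bright enough for HYAL1 to be tested.

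In knockdown clones HYAL1 went from -3.93, -5.92 and -3.29 to -1.98, -2.96 and -1.78. Of the mock arrays only that of clone 3 was well above background, and the groups did not overlap. The fitted difference of 2.14 (SE 0.71) was not called (limma, adjusted p = 0.400). With both clone and slide as blocks, a fit that called 748 of 25390 probes, it was 1.73 and was called (adjusted p = 0.0354). The rises of the single clones were 3.46, 3.44 and 3.30 in control clones and 1.95, 2.96 and 1.52 in knockdown clones. All but that of knockdown clone 3 start from a signal at background. The difference between the responses was -1.25 (95% interval -3.05 to 0.55; adjusted p = 1.00). Treated knockdown and control clones overlapped, with a difference of -0.44 (SE 0.35, adjusted p = 0.490).

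HYAL2 and HYAL3 are neighbours of HYAL1, and the probes of the 3 hyaluronidase genes lie within 24937 bases of hg19 chromosome 3. Unlike HYAL1, both were detected on all 12 arrays. HYAL2, the cell-surface enzyme, had 5.34, 5.47 and 6.26 in mock control clones and 5.58, 5.19 and 5.44 in mock knockdown clones. After 5-aza-dC it had 6.09, 6.39 and 6.20 in control clones and 5.33, 5.65 and 5.18 in knockdown clones. The treated groups did not overlap, the knockdown clones being lower.

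That difference was -0.84 (SE 0.22, 95% interval -1.36 to -0.33), and limma did not call it over all probes (adjusted p = 0.178). On slide 2 alone it was -0.58. Without knockdown clone 2 it was -0.97 and was called (adjusted p = 0.0137), in the fit across slides that called 7730 of 24640 probes. In control clones HYAL2 changed with 5-aza-dC by 0.54 (SE 0.28, adjusted p = 0.261), but by -0.03 with slide as a block. Control clones 1 and 2, whose mock arrays were on slide 1, differed by 0.74 and 0.93, and clone 3, with both arrays on slide 2, by -0.06. The part of the slide in this difference cannot be told apart from that of the treatment for clones 1 and 2. In knockdown clones the difference was -0.02 (SE 0.22, adjusted p = 0.985).

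HYAL3 had 0.14, 0.39 and 0.21 in mock control clones and 1.24, 0.65 and 0.70 in mock knockdown clones at its brightest probe (A_23_P361405). These mock groups did not overlap, with means of 0.25 ± 0.13 (SD, n = 3) and 0.86 ± 0.33 (SD, n = 3), and they did not overlap at the second probe either, where the means differed by 0.45. Both probes are described only, since they come from the comparison that chose the family. After 5-aza-dC the control clones had 0.16, 0.38 and 0.30 and the knockdown clones 0.93, -0.10 and 0.53. These groups overlapped, and the difference was 0.17 (SE 0.29, adjusted p = 0.747), but -0.38 with slide as a block (adjusted p = 0.531). HYAL3 differed between treated and mock clones by 0.03 (SE 0.16, adjusted p = 0.914) in control clones and by -0.41 (SE 0.33, adjusted p = 0.727) in knockdown clones.

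CD44 varied more between clones than any other member. In mock control clones 1 to 3 its brightest probe had -5.49, -3.92 and 4.84, from a processed signal of 7.21, not well above background, to 7847. In mock knockdown clones it had -1.21, 3.34 and 3.04. The mock signals thus spanned 10.3 log2 units over the 6 clones, with low and high clones of both types and both low and high arrays on slide 1.

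After 5-aza-dC the receptor was detected in all 6 clones. The control clones had 1.19, 0.53 and 4.11 and the knockdown clones 1.11, 3.44 and 2.50, so that the span over the 6 clones was 3.58. The 3 clones with the lowest mock signals rose. Control clone 1 rose by 6.67 from a background signal, control clone 2 by 4.45 and knockdown clone 1 by 2.32. The other clones changed by -0.73 (control clone 3), 0.10 (knockdown clone 2) and -0.54 (knockdown clone 3). Clones were not grouped by this outcome for any test, and a clone at background could only rise.

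No comparison between groups called CD44. Its mean was -1.52 ± 5.56 (SD, n = 3) in mock control, 1.72 ± 2.54 (SD, n = 3) in mock knockdown, 1.94 ± 1.90 (SD, n = 3) in treated control and 2.35 ± 1.17 (SD, n = 3) in treated knockdown clones, and neighbours in this order overlapped. The change with 5-aza-dC was 3.46 (95% interval -3.03 to 9.96; adjusted p = 0.429) in control clones and 0.62 (95% interval -2.46 to 3.71; adjusted p = 0.891) in knockdown clones. Without control clone 3 the change in control clones was 5.56 and was called (adjusted p = 0.0188), but mock and treated arrays then lie on different slides and 5346 of 23408 probes were called. With slide as a block, which leaves mock control clone 3 as the baseline, it was -2.90. Without knockdown clone 1 the change in knockdown clones was -0.22. The second CD44 probe stayed between -4.06 and -2.62 on all 12 arrays, and its change in control clones was -0.09 (95% interval -0.76 to 0.57). That probe was dim, with a processed signal of 21.2 to 39.1, and was well above background on 11 of 12 arrays. It also lists a single transcript, so it is not an equal reading of the gene.

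**Figure D3:**
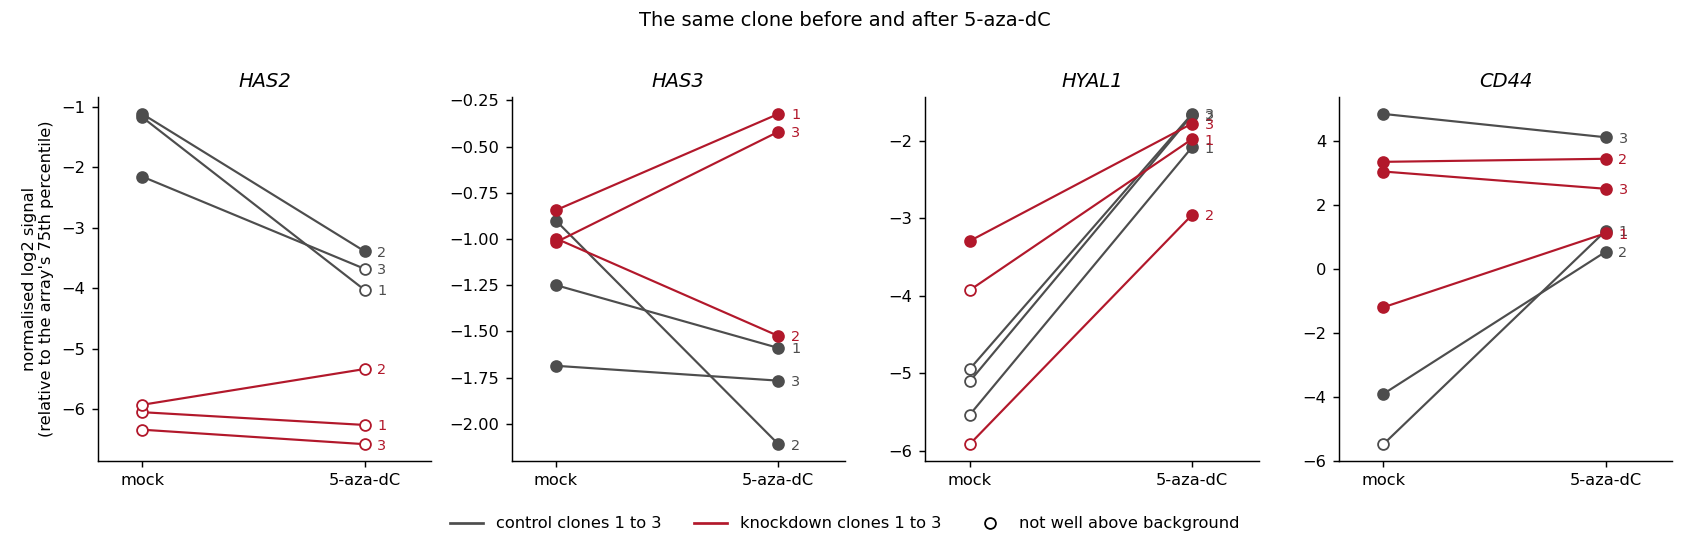
Normalised log2 signal (y axis) of HAS2, HAS3, HYAL1 and CD44 at their brightest probes in mock and 5-aza-dC arrays (x axis), with a line joining the arrays of each clone and the clone number at its right end. Open points are not well above background. HYAL1 rises in all 6 clones, HAS2 falls in the 3 control clones, and CD44 rises in the 3 clones that start lowest.

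Counted over the family, few members passed the test in any comparison. Between mock clones 8 member probes of 5 genes were bright enough to be tested and limma called 1, that of HAS2, where 0.137% of all 24753 probes tested were called. Since this comparison chose the family, nothing is read from that count. Between treated clones 8 member probes of 5 genes were tested and none was called, where 0.096% of all probes were called. At an unadjusted p under 0.05 limma counted 2 of them, HAS3 at 0.0238 and HYAL2 at 0.00649, where 19.3% of all probes were under it, and the methods' t-test after adjustment counted 0.

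Under 5-aza-dC the background of calls was higher. In control clones 2 of 9 member probes tested were called, HYAL1 higher and HAS2 lower, where 5.22% of all 24641 probes tested were called. Nothing is read from this count. The HAS2 decrease was known when the family was chosen, and HYAL1 passed the filter on dim probes only through the treated arrays. In knockdown clones 0 of 8 were called by limma or by the methods' t-test, where 2.04% of all probes were called, and without adjustment only HYAL1, at 0.0209, was under 0.05, as were 9.15% of all probes. For the difference between the responses 0 of 9 were called, where 0.0366% of all probes were called. Without adjustment no probe of a member other than HAS2 was under 0.05, where 2.47% of all probes were. HAS2 is left out of that count because its difference contains the mock values that chose the family. The member genes' median log2 difference was 0.17 between treated clones, 0.28 in control clones and 0.20 in knockdown clones, against -0.01, -0.02 and -0.09 over all probes. These medians cover only 5, 6 and 5 genes, and that of control clones includes HAS2 and HYAL1. Nothing about the family is read from them. The 5-aza-dC comparisons share their mock arrays with the comparison of mock clones.

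**Figure D4:**
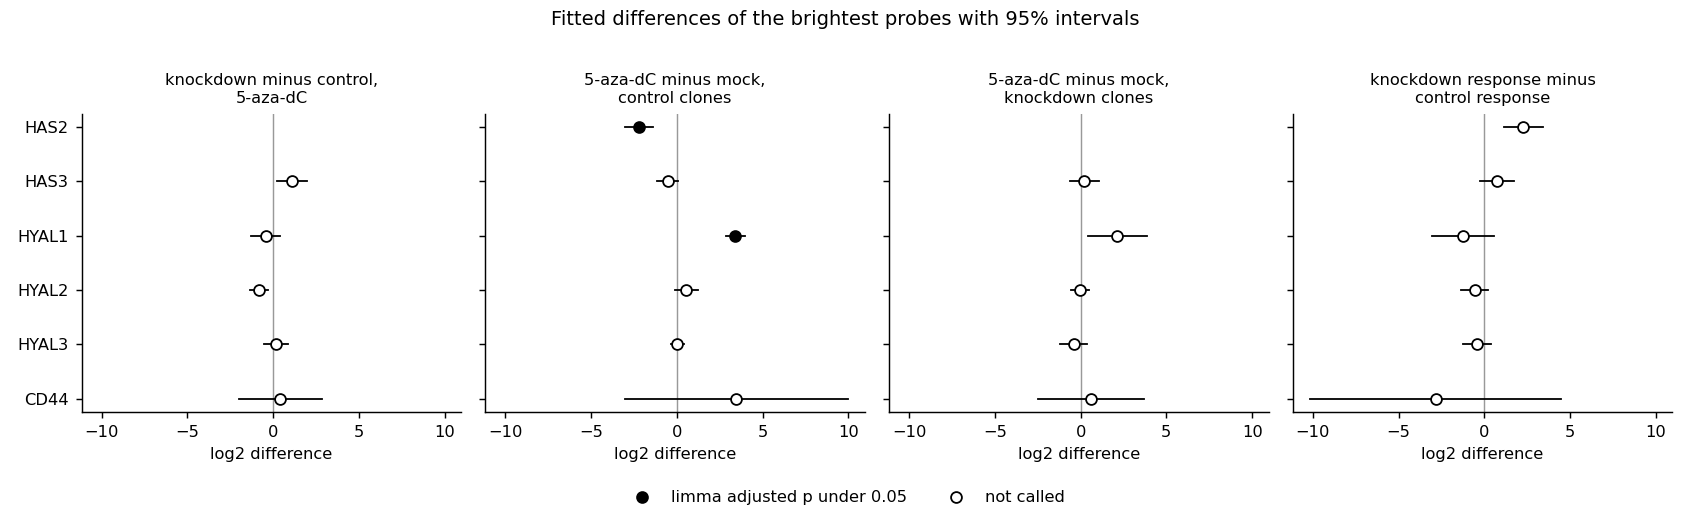
Fitted log2 differences (x axis) with 95% intervals of the brightest probe of each tested member (y axis) in 4 comparisons. Filled points have a limma adjusted p under 0.05, which are HAS2 and HYAL1 for 5-aza-dC in control clones. The values of both rest on a group at or near background, and the interval of CD44 there runs from -3.03 to 9.96.

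Beyond the family, 45 genes that supply precursors of hyaluronan, degrade it, bind it or act with CD44 were examined at their brightest probe, and 15 of them were never well above background. Between mock clones 21 were tested and limma called 1, HAS2-AS1, where 0.137% of all probes were called. In that comparison, which chose the family, HAS2-AS1 passed the filter on dim probes only through the mock control arrays. It was called under 8 of 13 other settings. The settings without a call include slide as a block and the methods' t-test. Between treated clones 24 were tested and none was called by limma or by the methods' t-test, with 6 at an unadjusted p under 0.05, as were 19.3% of all probes. Under 5-aza-dC limma called 6 of 24 tested in control clones, where 5.22% of all probes were called, and 4 of 24 in knockdown clones, where 2.04% were. TLR2 and MSN in control clones, and TLR2, STAB1 and HAPLN1 in knockdown clones, passed the filter on dim probes only through the treated arrays. HAS2-AS1 passed it in control clones only through the mock arrays. Nothing about the pathway as a whole is therefore read from these counts.

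The enzymes that make the sugar precursors did not pass the limma test in any comparison, nor the methods' t-test where it was run. At an unadjusted p under 0.05 limma counted 1 of 6 between mock clones, where 11.2% of all probes were under it. Between treated clones it counted 1 of 6, where 19.3% of all probes were. Under 5-aza-dC it counted 0 in both clone types, where 26.5% of all probes were under it in control and 9.15% in knockdown clones. Of UGDH, UGP2, GFPT1, GFPT2, GNPNAT1, PGM3 and UAP1, 6 were tested in control clones under 5-aza-dC, with differences from -0.23 (UGDH, which makes UDP-glucuronic acid) to 0.65 (GNPNAT1). In knockdown clones all 7 were tested, with differences from -0.14 (UGDH) to 0.47 (GFPT2).

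Among the other degrading enzymes, the lysosomal hexosaminidase subunit HEXA rose after 5-aza-dC in control clones by 0.83 (SE 0.15, adjusted p = 0.0326). HEXA lost its call with slide as a block, where 516 of 24641 probes were called, and with no filter on dim probes (adjusted p = 0.118). In control clones HEXA was called under 8 of 16 other settings. Those without a call also include the array median as the scale and clone as a block. In knockdown clones HEXA differed by 0.26 and was not called. GUSB and CEMIP2 (a cell-surface hyaluronidase, TMEM2 on the array) were not called in either clone type.

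Among the other receptors, TLR2, an innate immune receptor that hyaluronan fragments can engage, rose from background in both clone types. It was at least 4.93-fold higher in treated control clones (adjusted p = 0.00235) and at least 4.15-fold higher in treated knockdown clones (adjusted p = 0.000873). STAB1, a scavenger receptor, rose at least 2.44-fold in knockdown clones (adjusted p = 0.00195). Its levels in treated control clones were -3.97 to -3.03, with 1 of 3 arrays well above background. HMMR, the hyaluronan-mediated motility receptor, differed by 0.00 in control and 0.20 in knockdown clones and was not called. TLR2 in both clone types and STAB1 in knockdown clones passed the filter on dim probes only through the treated arrays, and they were also called with no filter (adjusted p = 0.00473, 0.00123 and 0.00274). LYVE1, STAB2, LAYN and TLR4 were at background on every array.

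Of the binding and link proteins, HAPLN1, which locks hyaluronan to proteoglycans, was at least 2.06-fold higher in treated than in mock knockdown clones (adjusted p = 0.0147), through which alone it passed the filter, and was called with no filter too (adjusted p = 0.0172). In control clones it differed by 1.06 (SE 0.31, adjusted p = 0.104). The other 5 binding genes tested in each clone type were not called, and 9 of the 17 listed were at background on every array.

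Among the splicing factors and linker proteins that act with CD44, calls were seen in both clone types. ESRP2, an epithelial splicing regulator that acts on CD44 transcripts, rose in control clones by 2.85 (SE 0.27, adjusted p = 0.00337), from -2.70 to -2.61 in mock to -0.23 to 0.75 in treated clones. In knockdown clones it rose by 3.23 (SE 0.26, adjusted p = 0.00144). MSN (moesin), which ties CD44 to the actin cortex, rose at least 2.65-fold from background in control clones (adjusted p = 0.0180). It also passed the filter only through the treated arrays and was called with no filter (adjusted p = 0.0294). In control clones MSN was called under 8 of 12 other settings. It lost its call with slide as a block, with normexp and quantile normalisation, by the methods' t-test and with both clone and slide as blocks. In treated knockdown clones it was well above background on 1 of 3 arrays. Its relatives EZR and RDX were bright on every array and were not called.

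In control clones the fit with both clone and slide as blocks called 0 of 24640 probes, so it says nothing about single genes of this list. In knockdown clones TLR2 was called under all 12 other settings in which it was tested. STAB1 was called under 11 of 12, the exception being normexp and quantile normalisation, where 267 of 25390 probes were called. ESRP2 was called under 14 of 16, the exceptions being the fits without knockdown clone 1 or 3, which called 0 probes in all. HAPLN1 was called under 9 of 12. The difference between the responses of the clone types was called by limma for 0 of 26 genes tested. At an unadjusted p under 0.05 limma counted 4, where 2.47% of all probes were under it. These include HAS2-AS1, whose difference contains the mock control arrays that chose the family, so nothing is read from that count.

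**Figure D5:**
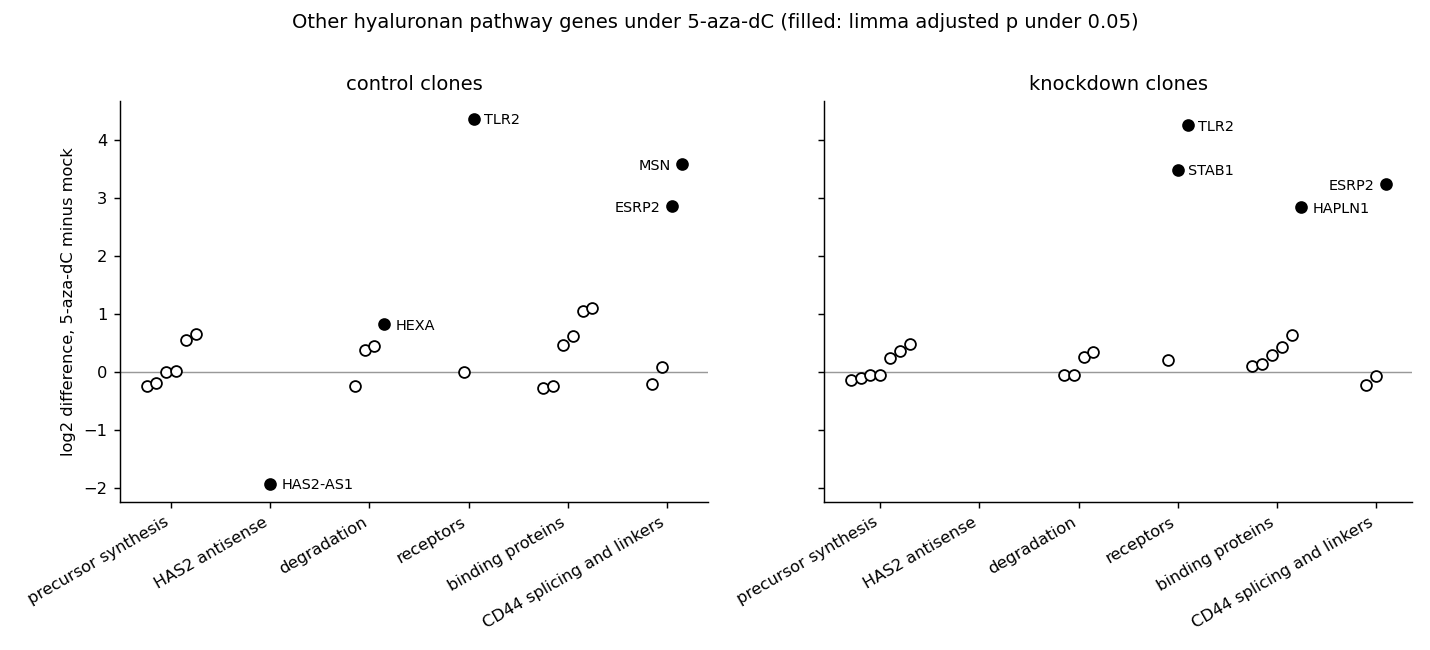
Fitted log2 differences between 5-aza-dC and mock clones (y axis) of the tested pathway genes reported here by role (x axis), 1 point per gene at its brightest probe, for control clones (left) and knockdown clones (right). Filled and named points have a limma adjusted p under 0.05, and those of TLR2, MSN, STAB1, HAPLN1 and HAS2-AS1 start or end at background, so their heights are not measured folds.

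Genes with the pattern most like a member were sought over 20839 probes by Pearson's r of the normalised log2 signal over the 12 arrays, which share the groups and slides above. HYAL1 was closest to SYNPO (r = 0.981), RAB11FIP4 (0.969) and DHRS2 (0.958). CD44 was closest to PLP2 (0.903), FLJ43663 (0.865) and SLC25A39 (0.865), the lowest values of the members searched. HAS3 was closest to RSG1 (0.969) and TTK (0.952). HYAL2 was closest to SMG8 (0.983), ZMAT2 (0.981) and TMEM203 (0.980), and HYAL3 to PTGES2 (0.954), KAT2B (0.947) and TTF2 (0.947). HAS1 and HAS2 were well above background on too few arrays for this search.

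Markers of cell identity moved in the same arrays as HYAL1 and HAS2. In control clones 5-aza-dC raised the neuroendocrine markers CHGA (6.01, adjusted p = 0.0289) and ENO2 (3.51, adjusted p = 0.0293) and the epithelial keratin KRT20 (1.35, adjusted p = 0.0216), and it raised COL1A1 and lowered CDH5. Other markers of the same lists were not called, with differences of -0.45 for KRT8, 0.06 for KRT18, 0.16 for CDX2, 3.31 for EPCAM, 1.69 for SYP, -1.45 for COL3A1 and 2.29 for LUM. In knockdown clones EPCAM rose (4.21, adjusted p = 0.0157). With slide as a block none of these 6 calls was kept. The summed linear level of the 4 neuroendocrine markers was 0.37 to 0.63 in mock control, 4.26 to 8.33 in treated control, 0.13 to 0.90 in mock knockdown and 2.60 to 3.47 in treated knockdown clones, in units of the array's 75th percentile, while NCAM1 was at background on every array. Of the 4 leukocyte markers PTPRC and CD14 were well above background on all 12 arrays, and their list summed to 1.85 to 2.73 in mock control, 1.80 to 2.08 in treated control, 1.39 to 1.82 in mock knockdown and 1.63 to 2.17 in treated knockdown clones. Of the endothelial markers PECAM1 was at background on every array, but CDH5 was well above it on 9 and VWF on 7. Of the fibroblast markers COL1A2 was at background on every array, and DCN and PDGFRA were well above it on 1. COL1A1 was well above background on all 12 arrays, and COL3A1 and LUM were on 11. The part of these markers in the changes of the hyaluronan genes was not tested.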

How the data were processed

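RNA of 6 Colo320DM clones, mock or 5-aza-dC treated, was labelled with Cy3 and measured on 12 Agilent 60K arrays. The deposited scanner files hold intensity values per spot, extracted by the authors with Agilent Feature Extraction 10.7 per the labels, background-subtracted but not normalised between arrays. The authors' series table holds the same linear intensity, uncentred and within 0.497% of the scanner values.

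Each array had 62976 spots, of which 58717 were no controls and read 50599 probes. No spot was saturated, and 268 to 395 outlier spots per array were left out. Deposited signals were converted to log2, averaged over the spots of a probe and centred on the 75th percentile of the array. Probes were tested where at least 50% of their spots were well above background on at least 3 arrays of the comparison. Groups were compared two-sided in limma 3.58.1 (lmFit, eBayes; R 4.3.3), using the arrays compared, or all 12 for the difference between responses. Benjamini-Hochberg adjustment covered every probe tested, and calls were made under 0.05. The scripts were checked on simulated data.

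A fold against a group with no array well above background is a bound, in which each dim array counts at its own signal or at the lowest signal of any probe well above background, whichever is higher. A gene's brightest probe has the highest mean over 12 arrays. Named were TET1, all member probes, 45 pathway genes where called or few to a role, marker genes, and the 3 genes most like each member well above background on at least 6 arrays. Some of these results are not reported here. The members and lists were chosen with earlier results of these data known. Of 76 symbols, 75 had an accession matched in RefSeq, 74 of them with an equal symbol. Promoter windows are from RefSeq (GRCh38.p14), probe positions from the array files (hg19).

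Clone numbers pair mock with treated arrays of the same clone. Their deviations from the group means correlated at 0.213 to 0.316 in control and 0.431 to 0.525 in knockdown clones over 27200 probes. Alternatives were the array median, quantile normalisation, normexp (offset 50), the series table, other filters on dim probes, outlier spots kept, slide or clone as blocks, a joint fit of 12 arrays, the methods' t-test, other probes and each clone left out. The joint fit with slide was added after the data were seen. P-values measure the spread between clones, which in the main fits also holds differences between slides. The main fits took mock and treated arrays of a clone as independent, and only the alternatives with clone as a block used the pairing. The precision is limited by 3 arrays per group.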

Additional observations from a re-analysis of the deposited data

How the results depend on the processing

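The count of member probes called between mock clones, 1 in the report, was 0 with normexp and quantile normalisation, 0 for probes well above background on every array and 0 by the methods' t-test, and it was 0 to 1 without 1 clone, where HAS2 could not be tested without any 1 control clone and was not called without knockdown clone 1 or 3. Between treated clones it was 0 to 2 without 1 clone, the 2 being HAS3 and HYAL2 without knockdown clone 2, where 7730 of all 24640 probes were called. For 5-aza-dC in control clones, 2 in the report, it was 0 for probes well above background on every array, 1 with slide as a block, 1 by the methods' t-test, 0 with both clone and slide as blocks, and 0 to 3 without 1 clone (CD44, HAS2 and HYAL2 without control clone 3, and 0 without control clone 1 or 2). Over all probes these last fits called 0 of 24640 with both blocks, 5346 of 23408 without control clone 3, 2 of 22585 without clone 1 and 0 of 22719 without clone 2. With clone alone as the replicate block it stayed at 2. In knockdown clones it was 0, and 1 (HYAL1) with clone and slide as blocks. For the difference between the responses it was 0 under every alternative run, the replicate block included.

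Between treated clones CD44 was -0.096 at its other probe and -0.30 to 1.49 without 1 clone, HAS3 was -0.076 at its other probe, and HYAL3 was -0.38 with slide as a block, -0.12 with all 12 arrays and slide, and -0.064 to 0.45 without 1 clone. In control clones under 5-aza-dC CD44 was -0.095 at its other probe, -2.90 with slide as a block, -0.73 with clone and slide as blocks and -0.26 with all 12 arrays and slide. There HAS3 was 0.045 with all 12 arrays and slide, HYAL2 was -0.033 with slide and -0.060 with clone and slide as blocks, and HYAL3 was -0.18 with the array median as the scale. In knockdown clones CD44 was -1.24 with all 12 arrays and slide and -0.22 to 1.21 without 1 clone, HAS3 was -0.081 at its other probe, -0.068 with the array median and -0.0034 to 0.56 without 1 clone, and HYAL2 was 0.060 with quantile normalisation, 0.061 with normexp and quantile normalisation and -0.25 to 0.10 without 1 clone. For the difference between the responses CD44 was 0.11 and HAS3 -0.0038 at their other probes. The cause of these changes was not tested.

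The array median as the scale moved the median of all probes from -0.02 to -0.23 in control and from -0.09 to -0.35 in knockdown clones. Signal over background limited HAS1, HAS2 and HYAL1, for which only bounds or no folds could be had in some groups.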
